A study of Rattus norvegicus with 31 samples.

Results

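The heart annotation assembled by the authors from left ventricle RNA held 8373 unnamed multi-exon intergenic genes among the 46063 assembled genes with measured values. A gene was taken when no line of the annotation gave it a gene name, when at least 1 of its transcripts had 2 or more exons, and when its span overlapped no named gene on either strand. The annotation held 62089 genes in all, and only those with measured values could be taken. Autosomes were considered and no further filter on low values was applied. Beyond the presence of values, expression took no part in the choice. The 20962 assembled autosomal genes with a gene name served as the main comparison.

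The libraries were made from rRNA-depleted, stranded total RNA of untreated, alcohol- and drug-naive male rats. They came from 2 inbred progenitors, SHR/OlaIpcv, the spontaneously hypertensive rat, and BN-Lx/Cub, a Brown Norway congenic strain with normal blood pressure, with 4 libraries each in sequencing batch 1. The 21 recombinant inbred strains derived from their crosses, 12 of the HXB family and 9 of the BXH family, had 1 library each in sequencing batches 2 and 3. The families descend from reciprocal crosses, and an inbred strain carries at each locus the allele of either progenitor. The labels give no age. For SHR replicate 4 the table also held a later library of the same animal. Values are on a log2 scale made by the authors, a difference of 1 is a doubling, and no counts were given, so depth is unknown. Cardiomyocyte marker genes had mean levels of 16.8 to 18.6, endothelial genes 12.02 to 14.68, fibroblast genes 11.8 to 16.0, and atrial genes 3.97 to 7.15. In whole ventricle, fewer cells of a type and less RNA per cell cannot be told apart.

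Assembly of a transcriptome joins spliced reads into transcripts without asking whether a database already knows them. Unnamed assembled genes far from known genes include long non-coding RNAs, which are often spliced from few exons and expressed at low levels, unannotated protein-coding genes, unattached first or last exons of known genes, and alignment artefacts. Many mammalian promoters also fire in both directions, which gives an RNA that starts beside a known gene and runs away from it.

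Most of the 8373 genes were short and had a single junction. The largest number of exons in a transcript was 2 in 6580 of them, 3 in 1085, and 4 or more in 708, and 58 had 10 or more. A single transcript was assembled for 7609. The longest transcript had a median spliced length of 1082 bases, against 3907 bases in named genes, and the median span was 6630 bases. In 444 genes every gap between exons was under 50 bases, shorter than a typical intron, so that the multi-exon label rests on gaps of doubtful kind there. The strands were used almost equally, 4184 genes on the plus and 4189 on the minus strand. Of all members, 3584 overlapped another assembled gene on the same strand and 3671 overlapped no other assembled gene on either strand, and reads within an overlap may have been split between genes. An intron with the same coordinates occurred in the earlier heart assembly for 1780 members (21.3%), compared with 74.5% of named multi-exon genes. In the annotation merged over tissues, 1695 overlapped a named gene and 27 carried a name of their own. An Ensembl gene ID was given for 320 members.

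By place, 3925 members (46.9%) lay more than 50 kb from any named gene. A divergent arrangement, with the start within 5000 bases of the start of a named gene on the opposite strand, was found for 724 (8.65%). Another 648 (7.74%) followed a named gene on the same strand within 10000 bases, 286 (3.42%) preceded one, 373 (4.45%) converged on one, and 2417 (28.9%) were placed otherwise within 50 kb. Of the divergent members, 207 started within 100 bases of the start of their partner and 511 within 1000, with a median of 237 bases, and they had 582 different partners.

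The partner promoters were read from RefSeq (assembly GRCr8, 250 bases before to 50 after the start) because the genome build of the files, rn7, was not used here. Among 470 partners with a promoter sequence, the median GC content was 63.3%, against 55.7% over 18158 promoters of protein-coding genes. The partners were named genes of the heart annotation, whereas the comparison took all protein-coding RefSeq genes. These sets were not matched for expression in heart. The ratio of observed to expected CG pairs was 0.78 in partners against 0.56. The letters TATAAA occurred on either strand in 7.23% of partner promoters and 13.1% of all protein-coding promoters, CCAAT in 39.4% and 38.3%, and GGGCGG in 64.3% and 43.4%. A pair of promoters is shown for the divergent members with the shortest distance among the highest levels and with the most exons, so that the density of CG pairs, in capitals, can be seen. Unc50 (GRCr8 chr9:47160568-47160867, plus strand) is the partner of PRN7.71G0150512, whose start lay 73 bases away, and Dimt1 (GRCr8 chr2:40076372-40076671, plus strand), which encodes a methyltransferase of ribosomal RNA, is the partner of PRN7.71G0033494 at 150 bases.
Unc50: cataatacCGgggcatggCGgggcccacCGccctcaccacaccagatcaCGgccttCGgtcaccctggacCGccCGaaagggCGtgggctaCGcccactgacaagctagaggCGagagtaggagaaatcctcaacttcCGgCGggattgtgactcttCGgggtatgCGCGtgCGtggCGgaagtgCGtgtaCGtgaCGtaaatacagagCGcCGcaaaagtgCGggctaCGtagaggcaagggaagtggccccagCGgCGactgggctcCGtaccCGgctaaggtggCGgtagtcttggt
Dimt1: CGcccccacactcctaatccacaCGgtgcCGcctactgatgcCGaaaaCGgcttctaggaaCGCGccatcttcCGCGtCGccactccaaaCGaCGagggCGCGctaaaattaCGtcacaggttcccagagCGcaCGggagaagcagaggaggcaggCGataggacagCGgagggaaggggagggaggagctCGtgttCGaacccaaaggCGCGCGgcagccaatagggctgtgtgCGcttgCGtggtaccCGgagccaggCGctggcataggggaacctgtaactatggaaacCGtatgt
Each window held 29 CG pairs, and the ratios of observed to expected were 0.98 and 1.02, both above the partner median of 0.78. GGGCGG occurred in the Unc50 window and CCAAT in the Dimt1 window. The window of Hpgd, partner of PRN7.71G0213111 and not shown, held 17 CG pairs with a ratio of 0.62, and GGGCGG occurred in it.

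The members were measured at low levels. On the log2 scale per kb of the longest transcript, their median over the 8 progenitor libraries was 3.16 against 4.72 for named genes, a difference of -1.56. On the scale as deposited, which grows with transcript length, the medians were 3.30 and 7.28, a difference of -3.98. The deposited levels of the members ran from -0.18 to 14.31. A mean above 8 was reached by 151 members (1.8%) and by 43.6% of named genes, and a mean above 10 by 55 members. The medians of the members in single libraries were 3.31 to 3.34 in BN-Lx, 3.22 to 3.40 in SHR, 3.06 to 3.55 in HXB and 2.79 to 3.34 in BXH.

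**Figure D1:**
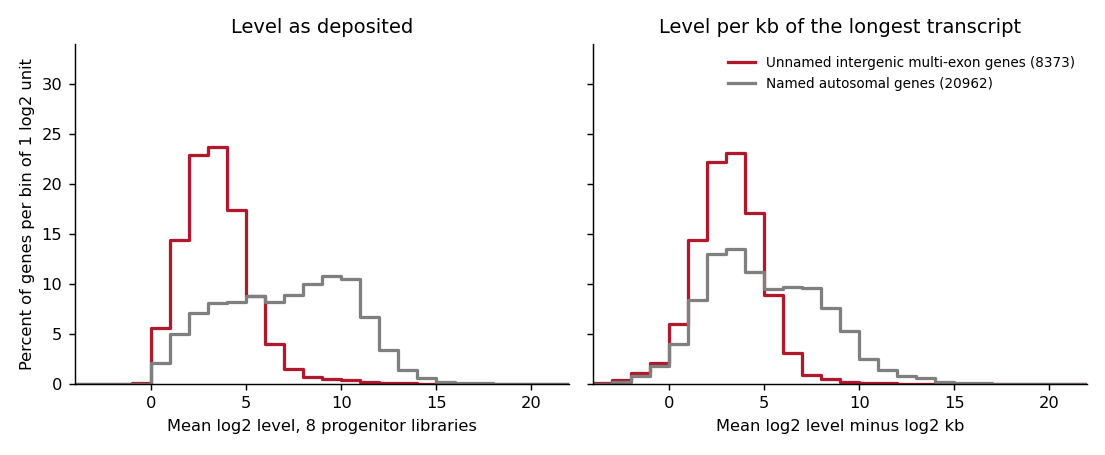
Percent of genes per bin of 1 log2 unit, for the mean level over 8 progenitor libraries, as deposited (left) and minus log2 of the length in kb (right); red, 8373 unnamed intergenic multi-exon genes, grey, 20962 named autosomal genes. The red curve lies to the left on both scales, with medians of 3.30 against 7.28 as deposited and of 3.16 against 4.72 per kb.

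The highest member, PRN7.71G0021927 (chr1:195977183-195978643, minus strand, rn7), had 2 exons and converged on Psmd13, a proteasome subunit gene, 287 bases away. Its level per kb was 15.96, and in the annotation merged over tissues it overlapped Psmd13. The BN-Lx libraries read 14.59, 14.46, 14.55 and 14.43 on the deposited log2 scale, and the SHR libraries 14.25, 14.09, 14.04 and 14.08. All SHR values lay below all BN-Lx values, and the difference was -0.40 (SE 0.07, limma adjusted p = 0.0021). Without the intensity trend the adjusted p was 0.058. The sole RefSeq gene between the same neighbours in GRCr8 was Cox8b, a subunit of cytochrome c oxidase of heart and skeletal muscle, on the same strand and with the same span of 1461 bases.

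This agreement in order, strand and span was then looked for over all members. For 7012 of them both flanking named genes were found in the same order in GRCr8, and 862 of these (12.3%) had no RefSeq gene in between. A RefSeq gene on the same strand whose span differed by at most 1% lay between the flanks for 159 members, and one on the other strand for 25. Of the 159, 51 faced a protein-coding gene and 108 a long non-coding RNA gene. Their median deposited levels were 5.27 and 3.25, and their median numbers of exons 4 and 3. The 51 members faced 50 different protein-coding symbols, and none of these was carried by another gene of the heart annotation. Among 130 members with a mean above 8 and matched flanks, 20 had such a counterpart, 16 of them protein-coding. The coordinates of the 2 builds were not aligned, so the counterpart is a match by place and not by sequence. The genes named in the next paragraph were chosen after their values were seen.

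Several counterparts belong to the basic equipment of the cell. PRN7.71G0153798 (chr9:74298861-74300926, 4 exons, mean deposited level 12.78) matched Rpl37a, a protein of the large ribosomal subunit. PRN7.71G0103579 (chr5:148103966-148106950, level 10.89) matched Pnrc2, a coregulator of nuclear receptors, with a span of 2985 bases in both builds. PRN7.71G0076566 (chr4:63927523-63937355, 10.44) matched Stmp1, a small mitochondrial protein, with 9833 bases in both. PRN7.71G0199019 (10.42) matched Ppp3r1, the regulatory subunit of calcineurin, and PRN7.71G0075958 (10.30) matched Atp6v1f, a subunit of the vacuolar proton pump. PRN7.71G0133403 (10.21) matched Cox14, an assembly factor of cytochrome c oxidase, with 2091 bases in both, and PRN7.71G0095214 (10.27) matched Mrpl50, a mitochondrial ribosomal protein, with 5155 bases. With 28 exons and a level of 9.76, PRN7.71G0115072 matched Gphn, which encodes the scaffold protein gephyrin. Of the 51 members with a protein-coding counterpart, 11 (21.6%) were called between SHR and BN-Lx (limma adjusted p under 0.05), against 14.3% of all assembled genes. Their median level was above that of all members, and over all genes the share called was larger at higher levels. PRN7.71G0175979, matching Ypel1, rose from 6.32 ± 0.11 (SD, n = 4) in BN-Lx to 7.48 ± 0.10 (SD, n = 4) in SHR (log2 difference 1.16, SE 0.13, limma adjusted p = 6.1e-05). PRN7.71G0086191, matching Kcna5, a potassium channel gene, fell from 6.52 ± 0.04 to 5.85 ± 0.30 (-0.68, SE 0.17, limma adjusted p = 0.018). PRN7.71G0076566 at the place of Stmp1 fell from 10.70 ± 0.14 to 10.18 ± 0.11 (-0.52, SE 0.09, limma adjusted p = 0.0022). For the 108 members with a long non-coding counterpart, 18 (16.7%) were called, near the 14.3% of all genes.

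For other high or long members no counterpart of like span was found, and the RefSeq genes between their flanks are given where known. PRN7.71G0035135 (chr2:54088059-54165105, minus strand, 18 exons, level per kb 11.50) had C7, a component of the terminal complement pathway, as the sole RefSeq gene between its flanks. BN-Lx libraries read 14.02, 13.93, 14.05 and 13.91, and SHR libraries 13.62, 13.60, 13.63 and 13.52. The groups did not overlap (difference -0.39, SE 0.06, limma adjusted p = 0.0012, and 0.0505 without the intensity trend). PRN7.71G0135617 (chr8:16164504-16368193, minus strand) had 92 exons, the most of all members. Muc16, a large membrane mucin, was 1 of 3 RefSeq genes between its flanks. Its BN-Lx values were 8.75, 8.55, 8.79 and 8.66, and its SHR values 7.84, 7.77, 7.56 and 7.58, without overlap (difference -1.002, SE 0.11, limma adjusted p = 5.9e-05).

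PRN7.71G0242498 (chr20:10438794-10514051, 43 exons) had Trappc10 and Pwp2 between its flanks in RefSeq. In the annotation merged over tissues it carried the name Pwp2 and also overlapped Agpat3. It had 11.54 ± 0.10 in BN-Lx and 11.51 ± 0.05 in SHR (SD, n = 4 each, limma adjusted p = 0.79). PRN7.71G0033494 (chr2:38168827-38342935, 31 exons), whose partner promoter is printed above, had 9.99 ± 0.12 and 9.88 ± 0.10 (limma adjusted p = 0.44). A flanking gene had no match in GRCr8, so RefSeq genes between its flanks were not looked up. It carried the Ensembl gene ID ENSRNOG00000062438. PRN7.71G0203948 (chr15:31573325-31693951, 28 exons) had Ift88 and Il17d among 3 RefSeq genes between its flanks. Its Ensembl gene ID was ENSRNOG00000067241, and in the annotation merged over tissues it overlapped Xpo4. It had 7.62 ± 0.13 and 7.52 ± 0.12 (limma adjusted p = 0.59). These long genes varied by 0.05 to 0.14 (SD) within a strain.

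Of the 6 members with the highest deposited levels, a pair was divergent. PRN7.71G0150512 (chr9:39651459-39664870, 3 exons, level per kb 11.11), beside Unc50, read 12.88, 13.17, 12.96 and 13.17 in BN-Lx and 13.18, 12.95, 13.09 and 13.11 in SHR. The sole RefSeq gene between its flanks was Coa5, an assembly factor of cytochrome c oxidase, and its Ensembl gene ID was ENSRNOG00000064457. PRN7.71G0089102 (chr5:3217184-3220192, 6 exons, level per kb 13.55), which starts 383 bases from Rdh10, a retinol dehydrogenase gene, read 13.59, 13.21, 13.56 and 13.29 in BN-Lx and 13.27, 13.29, 13.15 and 13.14 in SHR. The groups overlapped in both genes, and limma gave adjusted p = 0.81 and 0.16. PRN7.71G0164364 (chr10:72246115-72285417, 5 exons, 8 transcripts, level per kb 13.23) varied more. It read 12.80, 12.89, 13.27 and 12.35 in BN-Lx and 12.85, 12.84, 11.67 and 13.49 in SHR, and it ranged from 11.40 to 14.55 over HXB strains and from 11.70 to 15.57 over BXH strains. The later library of SHR replicate 4 differed from the first library of the same animal by -2.22 in this gene. It overlapped another assembled gene on each strand, and in the annotation merged over tissues it carried the name LOC120095491.

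Between SHR and BN-Lx, 1144 of the 8373 members (13.7%) passed an adjusted p of 0.05 in limma, against 14.3% of all assembled genes and 17.6% of named genes. Of these, 568 were higher in SHR and 576 lower, against 7.38% higher and 6.95% lower of all genes. The called members lay in 937 separate runs of neighbouring members. The 4 and 4 values did not overlap in 1583 members (18.9%), against 20.6% of all genes. An absolute difference of at least 2 was called for 192 members, out of 650 among all genes (1.41% of all genes), and of at least 3 for 47, out of 167.

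The share called rose with level. In the lowest of 5 equal classes of all genes by deposited level, 157 of 2048 members (7.67%) and 4.95% of other genes were called. In the middle class the shares were 14.5% and 12.4%. In the highest, 48 of 129 members (37.2%) and 22.5% of other genes were called. Differences of at least 2 in that class were called for 8 members (6.2%) and 0.187% of other genes. The median SD within a strain in the same class was 0.14 for members and 0.13 for other genes. The lower share over all members thus stood beside a higher share within each of the 5 classes.

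**Figure D2:**
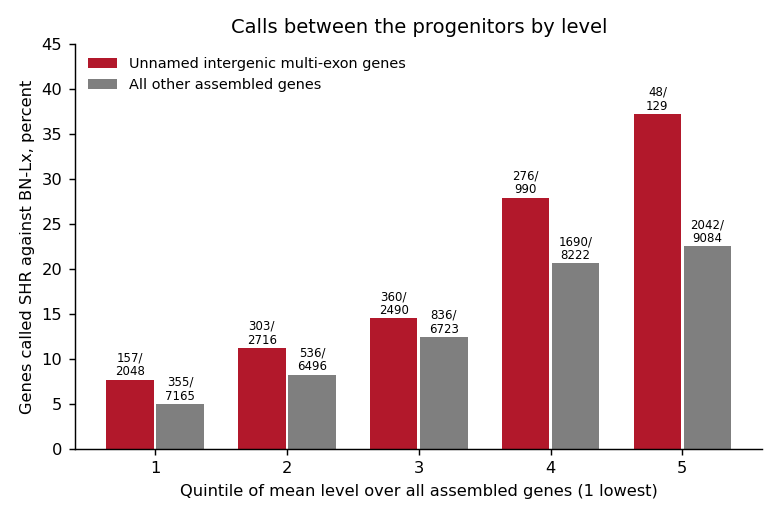
Percent of genes called between SHR and BN-Lx (limma adjusted p under 0.05, 4 libraries each) in 5 equal classes of mean level over all assembled genes; red, unnamed intergenic multi-exon genes, grey, all other assembled genes, with called and total numbers above the bars. The red bars exceed the grey ones in each class, from 7.67% against 4.95% in the lowest to 37.2% against 22.5% in the highest.

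The share also differed by structure. It was 12% in members with at most 2 exons, 16.9% with 3 and 24.3% with 4 or more. It was 21.9% in members with an intron of the earlier assembly and 11.4% in the others. By place it ran from 9.81% for divergent members to 15.5% for convergent ones, and members over 50 kb from any named gene had 14.1%. On chromosome 20, 20.1% were called (17.8% of other genes), and on chromosome 10, 8.9% (15.2% of other genes). These shares are descriptions, and level was not held equal between them.

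Among transcripts, 687 of 9217 member transcripts were called (7.45%, 337 higher and 350 lower in SHR), against 5.53% of all 91969 transcripts (2.72% higher and 2.81% lower). This count was 431 without SHR replicate 2, 447 without SHR replicate 3, 432 without SHR replicate 4, 455 without BN-Lx replicate 3 and 451 without BN-Lx replicate 4. At least 1 called transcript occurred in 607 members, and 587 of these (96.7%) were called as genes. In 5 members, transcripts were called in both directions. In PRN7.71G0021635 they differed by -2.63 (SE 0.28, limma adjusted p = 0.00095) and 2.80 (SE 0.32, limma adjusted p = 0.0016). In PRN7.71G0139675 they differed by 0.93 (SE 0.17, limma adjusted p = 0.015) and -3.14 (SE 0.19, limma adjusted p = 4.6e-05).

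The largest increases in SHR reached 22.6-fold. PRN7.71G0198724 (chr14:87431174-87529758, minus strand, 6 exons, 103264 bases from the nearest named gene) read 5.34, 4.66, 4.43 and 3.35 in BN-Lx and 9.05, 9.04, 8.89 and 8.80 in SHR. Every SHR library lay above every BN-Lx library (difference 4.50, SE 0.31, limma adjusted p = 1.3e-06). PRN7.71G0006750 (chr1:63623695-63627521, plus strand, 2 exons), 7676 bases downstream of the vomeronasal receptor gene Vom2r19, read 5.74, 5.23, 5.50 and 4.49 in BN-Lx and 9.64, 9.56, 9.52 and 9.52 in SHR. The difference was 4.32 (SE 0.21, limma adjusted p = 6.7e-08). PRN7.71G0006749 starts 1 base before it on the same strand and differed by 4.48 (SE 0.29, limma adjusted p = 5.8e-07). These overlapping genes are not separate observations, since their reads may be shared.

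The member with the highest level among the increases was PRN7.71G0082113 (chr4:118295897-118298513, minus strand), beside a cluster of Nat8 acetyltransferase genes. It read 9.12, 7.79, 8.15 and 7.79 in BN-Lx and 12.41, 12.35, 12.51 and 12.44 in SHR, without overlap (difference 4.21, SE 0.23, limma adjusted p = 1.3e-07). Its exons are separated by a gap of 27 bases, it overlaps other assembled genes on both strands, and near-identical copies in this cluster could share its reads. The nearest named gene of the annotation, joined from Nat8 and Nat8f3, moved the other way, by -2.09 (limma adjusted p = 6.7e-05), and in the annotation merged over tissues the member overlapped Dusp11. PRN7.71G0213111 (chr16:34028968-34030502, plus strand), divergent at 4653 bases from the prostaglandin-degrading enzyme gene Hpgd, read 2.79, 2.304, 2.61 and 2.16 in BN-Lx and 6.78, 6.46, 6.51 and 6.48 in SHR. It differed by 4.09 (SE 0.23, limma adjusted p = 1.9e-07), without overlap. PRN7.71G0120695 (chr7:7539755-7548918, minus strand, 3 exons), among zinc finger genes, differed by 4.09 as well, from 2.44 ± 0.44 to 6.52 ± 0.21 (SD, n = 4 each; SE 0.27, limma adjusted p = 6.8e-07).

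The largest decreases reached 17.3-fold. PRN7.71G0208687 (chr15:91903977-92016268, minus strand, 6 exons), 162900 bases from the microRNA gene Mir17, read 9.65, 9.56, 9.57 and 9.45 in BN-Lx and 4.69, 5.74, 6.02 and 5.33 in SHR. All SHR values were lower (difference -4.11, SE 0.23, limma adjusted p = 1.5e-07). PRN7.71G0159975 (chr10:28613447-28755950, minus strand) had 13 exons and 15 transcripts and lay between Adra1b, an alpha-1 adrenergic receptor gene, and Ublcp1, with 189553 bases to the latter. It read 12.003, 11.90, 12.02 and 11.95 in BN-Lx and 7.87, 8.67, 8.77 and 8.27 in SHR. The difference was -3.57 (SE 0.16, limma adjusted p = 2.8e-08) at a mean deposited level above 10. PRN7.71G0139678 (chr8:57225031-57234594, minus strand), whose exons are separated by 62 bases, read 9.75, 9.78, 9.78 and 9.64 in BN-Lx and 5.002, 6.14, 6.34 and 5.79 in SHR, without overlap (-3.92, SE 0.23, limma adjusted p = 2.3e-07). PRN7.71G0111529 (chr6:59155254-59173253) and PRN7.71G0183373 (chr13:23652406-23745950), the latter 2135 bases downstream of Serpinb8, a protease inhibitor gene, differed by -3.76 (SE 0.24, limma adjusted p = 5.6e-07) and -3.52 (SE 0.23, limma adjusted p = 8.5e-07).

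**Figure D3:**
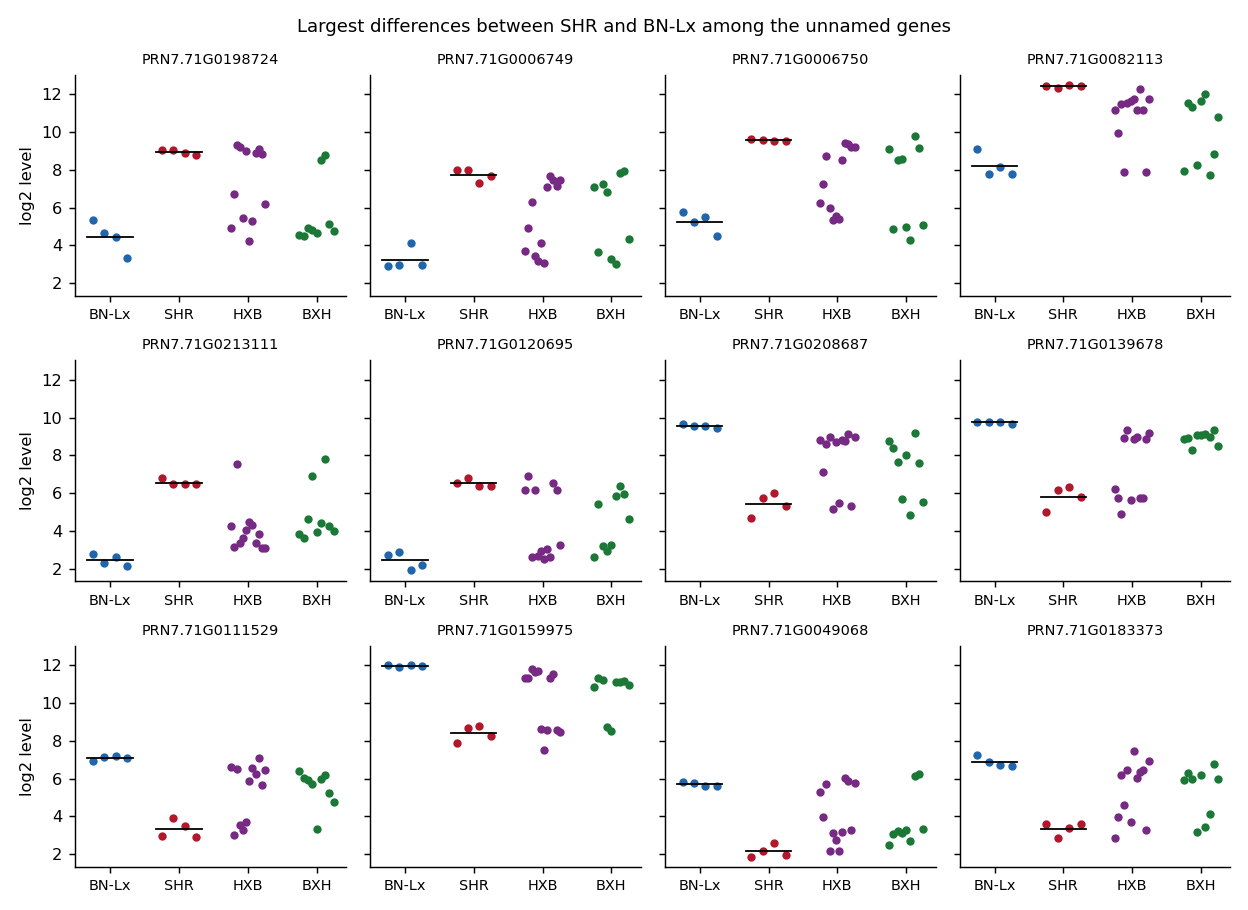
log2 level in each library for the 6 highest and 6 lowest called differences between SHR and BN-Lx among the unnamed genes; points are libraries, black lines the means of 4 BN-Lx and 4 SHR libraries, and the HXB and BXH points are 12 and 9 strains with 1 library each. BN-Lx and SHR do not overlap in any panel. For PRN7.71G0139678 the 9 BXH strains all lie at 8.30 to 9.31, and for PRN7.71G0213111 BXH6 (7.83), HXB17 (7.54) and BXH13 (6.89) lie above the 4 SHR libraries.

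Members whose nearest named gene was a heart transcription factor or cardiomyocyte gene from 92 listed genes numbered 93, around 33 of the listed genes. Of these, 16 (17.2%) were called, 5 higher and 11 lower in SHR, against 14.3% of all genes. Their median deposited level was 3.19.

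Near Gata6, a transcription factor of heart development, PRN7.71G0227096 (chr18:2234535-2352444, plus strand, 4 exons) began 1277 bases downstream of the gene on its strand. It read 7.17, 7.32, 7.43 and 7.36 in BN-Lx and 4.93, 5.37, 5.37 and 5.41 in SHR. It fell in SHR without overlap (difference -2.05, SE 0.16, limma adjusted p = 3.1e-06). Gata6 itself differed by -0.26 (limma adjusted p = 0.080), so that its own difference did not pass the test.

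Kcnd3 encodes a channel of the transient outward potassium current, and 3 of the named members lay upstream of it. PRN7.71G0049068 (chr2:192857436-192871097, plus strand, 4 exons), 9097 bases upstream, read 5.84, 5.79, 5.63 and 5.60 in BN-Lx and 1.86, 2.19, 2.61 and 1.95 in SHR. It fell without overlap (-3.56, SE 0.26, limma adjusted p = 2.0e-06). The neighbours on the minus strand, PRN7.71G0049065 and PRN7.71G0049057, had differences of -0.02 (SE 0.20, limma adjusted p = 0.97) and 0.13 (SE 0.15, limma adjusted p = 0.62), and Kcnd3 -0.15 (limma adjusted p = 0.81).

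Between Irx5 and Irx3, homeobox transcription factors of the heart, the overlapping PRN7.71G0236267 (chr19:15035461-15078716) and PRN7.71G0236264 (chr19:15013860-15077602) both fell. The former read 9.53, 9.36, 9.07 and 9.48 in BN-Lx and 7.98, 8.13, 7.98 and 8.10 in SHR (-1.31, SE 0.11, limma adjusted p = 7.6e-06), and the latter differed by -1.07 (SE 0.14, limma adjusted p = 0.00023). The 4 and 4 values did not overlap in either. Irx3 differed by -0.02 (limma adjusted p = 0.94).

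PRN7.71G0075555 (chr4:53075851-53079937), 726 bases downstream of the actin filament regulator gene Lmod2, read 5.34, 5.89, 5.39 and 5.65 in BN-Lx and 6.22, 6.12, 6.09 and 6.41 in SHR. It rose by 0.64 (SE 0.18, limma adjusted p = 0.028), and adjusted p was 0.074 without BN-Lx replicate 3, 0.076 without BN-Lx replicate 1, and 0.051 to 0.092 without SHR replicate 1, 2 or 4, and 0.075 with all libraries and a batch term. The members nearest to Hand2 and Gja1, PRN7.71G0212965 and PRN7.71G0244749, differed by -0.18 (SE 0.13, limma adjusted p = 0.41) and -0.07 (SE 0.18, limma adjusted p = 0.82).

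The 21 strains, which were not used to call the progenitor difference, were placed between the progenitor means after centring within batch. Of the 192 members with a called difference of at least 2, 179 (93.2%) had at least 3 strains nearer to each progenitor and at least 15 of 21 strains within 1 log2 unit of either mean. Over all genes this held for 576 of 650 (88.6%). The criterion is easily met for differences near 2, where a strain at any point between the means lies within 1 of either. For differences of at least 3 it held for 36 of 47 members (76.6%) and 110 of 167 of all genes (65.9%). On a scale from 0 at the BN-Lx mean to 1 at the SHR mean, 27.5% of the strain values of these 47 members lay between 0.25 and 0.75, 37.2% below 0.25 and 35.4% above 0.75. Over all genes with such differences the shares were 27.8%, 36.4% and 35.8%, close to those of the members. The number of strains nearer to SHR ran from 4 to 16 over the 192 members, with a median of 10.

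Some of the members named had strain groups set apart by a gap. PRN7.71G0139678, PRN7.71G0104008 and PRN7.71G0184144 were among those named for their gain in BIC over these same strains. A gap in them was likely by that choice, and they do not stand for the members in general. For PRN7.71G0227096 near Gata6 all 21 strains lay within 1 of a progenitor mean, 12 of them nearer to SHR at 5.01 to 5.90 and the others at 6.77 to 7.74, with no strain between these ranges. PRN7.71G0159975 had 7 strains nearer to SHR at 7.34 to 8.81 and the others at 10.66 to 11.90. PRN7.71G0139678 had 6 at 4.83 to 6.16 and the others at 8.25 to 9.31, and its gain in BIC for 2 modes over 1 was 33.7, the largest among called members. PRN7.71G0104008 (chr5:151031528-151035224, 6114 bases downstream of the phospholipase gene Pla2g5), which read 6.55 ± 0.14 in BN-Lx and 3.33 ± 0.30 in SHR (SD, n = 4 each), had 12 strains at 3.14 to 4.35 and the others at 6.14 to 7.21. In the annotation merged over tissues PRN7.71G0104008 overlapped Pla2g5. PRN7.71G0184144 (chr13:33783217-33791042) had 12 strains nearer to SHR at 5.46 to 6.60 and the others at 3.10 to 3.95. By contrast, PRN7.71G0082113 had 14 strains nearer to SHR, at 10.72 to 12.46, and the others reached 10.14, so that its strains formed no gap of that size.

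**Figure D4:**
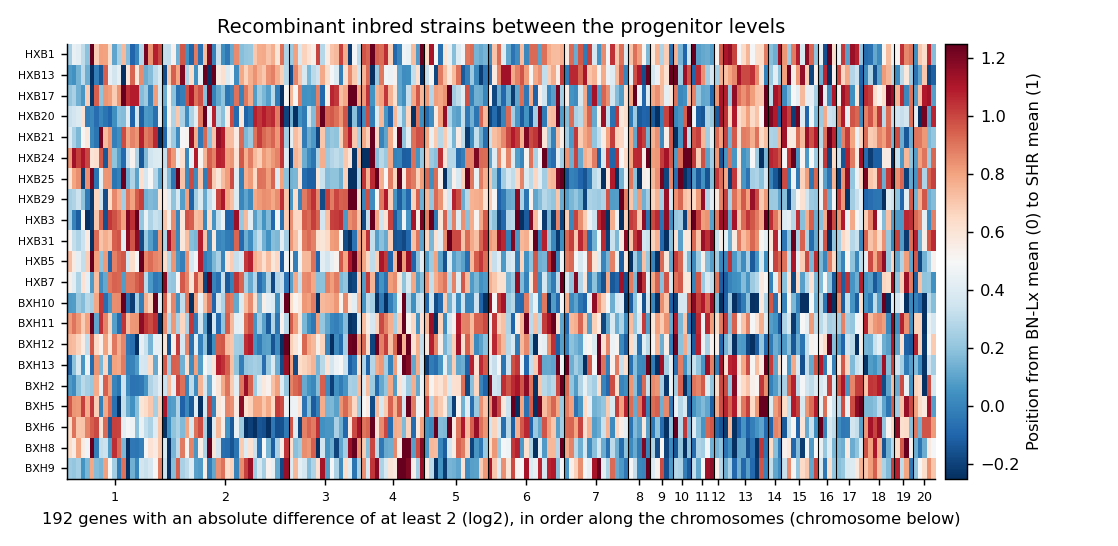
Each column is 1 of 192 unnamed genes with a called difference of at least 2 between SHR and BN-Lx, ordered along chromosomes 1 to 20, and each row a recombinant inbred strain; colour gives the position of the strain after centring within batch, from the BN-Lx mean (0, blue) to the SHR mean (1, red). Each gene has between 4 and 16 strains nearer to SHR, and blocks of neighbouring columns share a colour within a strain.

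Members close to each other often had the same strains on the same side. Over 50 pairs of recurring members that overlapped or belonged to the same run, 88.7% of strains on average were alike. Single pairs ran from 52.4% to 100%, and overlapping members may share reads. The mean was 74.8% over 20 pairs under 1 Mb apart, with single pairs from 38.1% to 100%. It was 56.4% over 114 pairs at 1 to 10 Mb and 51.2% over 562 pairs more than 50 Mb apart. On different chromosomes it was 50.7% over 14791 pairs.

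A mixture of 2 or 3 modes over the strains had the best BIC for 2303 members (27.5%), against 21.2% of all genes and 18.4% of named genes. It was 32.7% for members called between the progenitors and 26.7% for the others. The gain in BIC for 2 modes was 29 for PRN7.71G0093589, which read 1.69 ± 0.25 in BN-Lx and 5.04 ± 0.09 in SHR (SD, n = 4 each; difference 3.35, SE 0.27, limma adjusted p = 4.8e-06). The gains were 23.2 and 21.1 for PRN7.71G0033538 and PRN7.71G0084386, with smaller progenitor differences of 1.04 (SE 0.27, limma adjusted p = 0.022) and 1.26 (SE 0.34, limma adjusted p = 0.027), which did not pass the test without BN-Lx replicate 1 (adjusted p = 0.056 and 0.073) or SHR replicate 4 (0.077 and 0.061). The latter call was also lost without BN-Lx replicate 4, SHR replicate 1 or SHR replicate 2 (adjusted p = 0.059 to 0.068). PRN7.71G0033538 and PRN7.71G0084386 were also higher in HXB than in BXH strains. The differences were 0.76 (SE 0.24, limma adjusted p = 0.024) and 1.67 (SE 0.32, limma adjusted p = 0.0014). For PRN7.71G0033538 the lowest strains were BXH5, BXH8 and BXH9 at 2.86 to 2.95, and HXB strains ran from 4.23 to 5.10. For PRN7.71G0084386, BXH2, BXH8, BXH9, BXH10, BXH12 and BXH13 read 2.18 to 2.89. The other BXH strains read 4.60 to 4.96, and HXB strains 4.32 to 5.83. The low values of both genes were thus all of BXH strains, but modes and families were not compared by a test. The members had a larger SD over the strains than named genes, with medians of 0.57 and 0.34 on the log2 scale, but level was not held equal. Within a progenitor strain, the median SD of members was 0.55 in the lowest of 5 classes of level and 0.14 in the highest. For other assembled genes it was 0.55 and 0.13.

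The earlier heart assembly gave a check of the strain values, although from the same libraries. For 1749 members with a matched gene in its table, the median Spearman correlation over 21 strains was 0.81, and for 15133 named genes 0.95. The 69 matched recurring members with a difference of at least 2 had a median of 0.92, and in 37 of them the strains nearer to SHR and to BN-Lx did not overlap in the earlier table.

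HXB and BXH strains differed in 1441 members (17.2%), against 27.9% of all genes and 38.3% of named genes. Of these members, 1200 were higher in HXB and 241 lower, whereas over all genes 15.1% were higher and 12.8% lower. The median difference between the families over members was 0.26, over all genes 0.11 and over named genes -0.04. The direction of the split depended on the scaling. With quantile normalization 561 members were higher and 432 lower (all genes 10.7% and 13.9%), and with each library shifted to the same median 442 were higher and 620 lower (all genes 4.88% and 23.2%). For SHR replicate 4, the later library differed from the first by a median of 0.29 over members and -0.02 over named genes. A library difference of this size thus occurred without a difference in strain or animal, but between sequencing batches. The library medians of the spike-in RNAs ran from 5.66 to 6.62 in HXB, 6.14 to 7.68 in BXH, 6.26 to 7.31 in BN-Lx and 5.82 to 6.49 in SHR. The part of library differences in the family comparison was not tested.

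**Figure D5:**
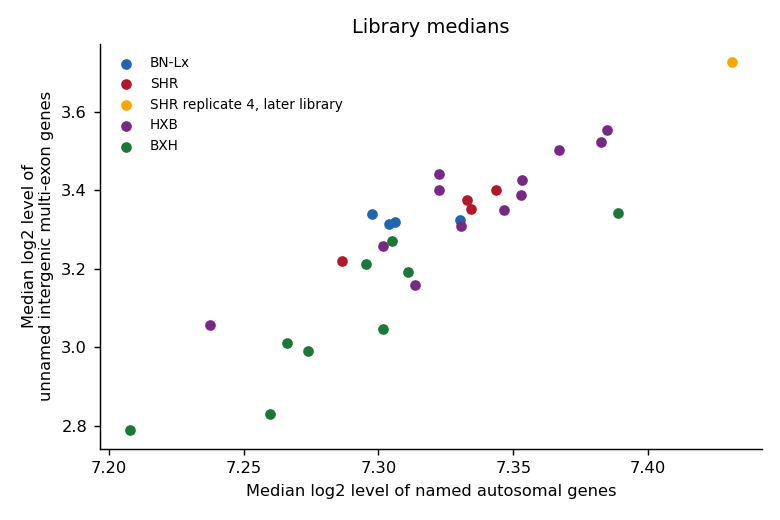
Median log2 level of the unnamed intergenic multi-exon genes (vertical) and of named autosomal genes (horizontal) in each library; colours give BN-Lx, SHR, the later library of SHR replicate 4, HXB and BXH. BXH strains lie between 2.79 and 3.34 and HXB strains between 3.06 and 3.55 on the vertical axis, and the later SHR library lies above both at 3.73.

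The smallest p-values between the families belonged to members with differences near 1. PRN7.71G0212735 (chr16:30758899-30762805) had a lowest, median and highest level of 6.30, 7.11 and 7.75 over HXB strains and of 4.86, 5.75 and 6.36 over BXH strains. The families overlapped slightly (difference 1.42, SE 0.18, limma adjusted p = 0.00025). The later library of SHR replicate 4 lay above the first by 1.45 in this gene, as much as the families differed. PRN7.71G0033334 (chr2:36980926-37021008, 6 exons) ran from 5.77 to 6.80 in HXB, with a median of 6.27, and from 4.86 to 5.63 in BXH, with a median of 5.27, without overlap (1.00, SE 0.13, limma adjusted p = 0.00025). It was also higher in SHR than in BN-Lx, by 1.08 (SE 0.17, limma adjusted p = 0.00092), and the later SHR library lay above the first by 0.64. PRN7.71G0003777 (chr1:35675200-35781741, 17 exons) ran from 5.09 to 5.84 in HXB and from 3.67 to 4.86 in BXH (0.98, SE 0.14, limma adjusted p = 0.00052), while its progenitors read 5.21 ± 0.26 and 5.09 ± 0.38 (SD, n = 4 each; limma adjusted p = 0.78), and the libraries of SHR replicate 4 differed by -0.01. PRN7.71G0024116 (chr1:209088824-209113478, 4 exons), 7098 bases downstream of the olfactory receptor gene Or5bb12, differed by 1.44 (SE 0.21, limma adjusted p = 0.00065), and the libraries of SHR replicate 4 by 1.41. At the place of Cox8b, PRN7.71G0021927 was lower in HXB, with medians of 14.21 in HXB and 14.65 in BXH (difference -0.39, SE 0.07, limma adjusted p = 0.0012). The libraries of SHR replicate 4 differed by -0.36 in it. Of these 5 differences between the families, 3 were close in size to a difference between libraries of the same animal. Those libraries came from different sequencing batches, whereas the families were compared with batch in the fit. The sizes are therefore not like for like, and the part of library differences was not tested.

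In the median, members followed their named neighbours little over the strains. Level was not held equal, as members had a median of 3.30 and named genes of 7.28. Among the members named, single Spearman correlations with the nearest named gene ran from -0.45 (PRN7.71G0164364) to 0.96 (PRN7.71G0242498). The median Spearman correlation with the neighbour was 0.10 over 672 divergent pairs, against 0.36 over 759 divergent pairs of named genes, with strains as points that share libraries and batches. For divergent members above the median level of members it was 0.17. The medians were 0.04 for tandem pairs (0.39 between named genes), 0.08 for convergent pairs (0.36) and 0.00 for members over 50 kb away (0.10). Of 742 called members with a neighbour in the table, 210 (28.3%) had a neighbour that was called too, 123 of them in the same direction, and 21.2% of the members not called had a called neighbour.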

How the data were processed

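rRNA-depleted total RNA libraries were aligned, assembled and quantified by the authors. According to the submitters' processing notes, the build was rn7, and the tools were DESeq2 (no version), RSEM 1.3.1, StringTie 1.3.5, cutadapt 1.9.1, HISAT2 2.1.0 and Bowtie2 2.3.4.3, in no stated order or role. The deposited log2 values carry no stated transformation and no counts, so depth is unknown. Spike-in RNAs were left out.

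Members, gene lists and comparisons were chosen with earlier results of these data known. Differences were fitted over all genes with limma 3.58.1 in R 4.3.3 (eBayes with intensity trend, two-sided, Benjamini-Hochberg adjustment, threshold 0.05): SHR against BN-Lx in 8 libraries of batch 1 without covariates, and HXB against BXH in 21 libraries with batch. Modes were fitted with mclust 6.1.1 (up to 3 components of equal variance, batch centred). Both were tested on simulated data. Python 3.11.15 was used for tables. Whether replicates were littermates is not stated, and p-values cover only the spread among the animals used.

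The members named were the 6 of highest level, the 6 highest and 6 lowest called differences without overlap, the 4 smallest p for the families, the 6 largest gains in BIC among called members, the 4 with most exons, and the 8 of highest level nearest to a listed heart gene. Counterparts in RefSeq were matched by flanking gene order, strand and span.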

Additional observations from a re-analysis of the deposited data

Results flagged for a closer look

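Within groups of 4 to 10 libraries, 117 sets of values of the 39 named members were screened for a single library far from the others, which chance gives in about 1 in 20 groups, and 5 were found. PRN7.71G0006749 read 4.15 in BN-Lx replicate 3 and 2.92 to 2.97 in the other BN-Lx libraries. PRN7.71G0213111 read 6.78 in SHR replicate 1 and 6.46 to 6.51 in the others, and PRN7.71G0227096, downstream of Gata6, read 4.93 in SHR replicate 1 and 5.37 to 5.41 in the others. PRN7.71G0003777 read 3.67 in BXH12 and 4.26 to 4.86 in the other BXH strains. PRN7.71G0093589 read 6.07 in BXH6 and 2.19 to 2.99 in the other BXH strains, and its progenitor levels were 1.69 ± 0.25 in BN-Lx and 5.04 ± 0.09 in SHR (SD, n = 4 each).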

How the results depend on the processing

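No counts were given, so what depth limits is unknown, and the median SD of members within a strain was 0.55 in the lowest of 5 classes of level and 0.14 in the highest. Over the named members no called difference changed sign, and of their values under the alternatives 393 stayed on the same side of the threshold and 19 fell short of it. The 1144 members called between SHR and BN-Lx (568 higher, 576 lower) became 549 (250 and 299) among genes above the median level. Genes below that level were left out there, so fewer members could be called by construction. The median level was 3.30 in members and 4.32 over all genes. In the full fit, 37.2% of members were called in the highest class of level and 7.67% in the lowest. All libraries with a batch term gave 747 members (365 lower), with the cause of that change not tested. With 1 library left out the counts were 822 to 990 (382 to 509 higher, 427 to 491 lower). Limited to members that overlapped no other assembled gene, which was chosen after seeing the data, 441 were called (242 and 199), by construction fewer. The 687 member transcripts became 266 (119 and 147) above the median level, where those below it were again left out. They became 431 to 484 with 1 library left out (204 to 257 higher, 210 to 242 lower). Deviations of same-numbered BN-Lx and SHR libraries correlated at -0.04 to 0.03, so these libraries shared no deviation over the genes as a whole. Whether the numbers pair the animals in another way is unknown. With the replicate block 953 members and 252 transcripts (131 and 121) were called. Between the families, 834 members (684 and 150) were called above the median level, against 1441 with the members below it included. Quantile normalization gave 561 and 432, and libraries shifted to the same median, chosen after seeing the data, 442 and 620. Counting progenitor differences from 1 rather than 2, 880 of 893 members recurred in the strains (97.4% of all genes), which says little, since any strain between the progenitor means then nearly always meets the criterion. The median level below named genes was -4.05 in the 21 strains, -4.07 against multi-exon named genes and -1.56 per kb, the last chosen after seeing the data. PRN7.71G0033538 and PRN7.71G0084386 lost their calls in several alternatives, with adjusted p from limma of at most 0.077 and 0.10. Sequence features of the members were not run, as they need the rn7 genome.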

Other observations

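Some members on different chromosomes had the same strains on the same side of the progenitor means. Of 14791 such pairs, 7 were alike in all 21 strains, and 25 in at least 20. PRN7.71G0083608 (chr4:133012162-133070024), PRN7.71G0088584 (chr5:360915-364828) and PRN7.71G0150476 (chr9:39193948-39201292) were alike in all 21 strains, 14 of which lay nearer to SHR, and they were higher in SHR than in BN-Lx by 3.21, 3.79 and 2.12 (limma adjusted p = 7.3e-08, 9.1e-07 and 5.2e-08). PRN7.71G0134617 (chr8:5348245-5371855), near the channel gene Trpc6, was alike with these in 20 strains and was higher in SHR by 3.53 (limma adjusted p = 1.6e-08). A second set joined PRN7.71G0178697 on chromosome 12, in a cluster of vomeronasal receptor genes, with PRN7.71G0183621 on chromosome 13 and PRN7.71G0220230 on chromosome 17, alike in all 21 strains. PRN7.71G0178697 and PRN7.71G0183621 were higher in SHR by 3.23 and 2.72. PRN7.71G0050967 on chromosome 2 and PRN7.71G0205414 on chromosome 15 were alike in 20 strains and were lower in SHR, with differences of -3.25 and -2.12. The cause was not tested.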
